A study of Mus musculus with 9 samples.

Results

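The 9 genes described here are outputs of the circadian clock in the liver, and some of them also act back on the clock. They are the PAR bZIP activators Dbp, Tef and Hlf, their repressor Nfil3, the nocturnin gene Noct, the ubiquitin protease gene Usp2, and the repressor genes Ciart, Bhlhe40 and Bhlhe41. They were chosen by name and matched by exact symbol in a table of 19686 genes, in which each was found under 1 identifier. Their counts come from the liver RNA of 9 male Wistar rats, 3 each from the control, model and DSS groups. The control group drank purified water and received saline by gavage every day. The model group drank 15% fructose and received the same saline. The DSS group drank 15% fructose and received an extract of Danggui-Shaoyao-San, a herbal formula, at 1.8 g/kg. The labels call this group DSS, and in the study's methods only the 50% methanol extract (HME) was taken to transcriptomics. Treatment lasted 8 weeks, and all rats were fasted for 12 h before they were killed. No group received the extract without fructose, so the extract was measured only on top of the fructose drink. The organism field of the labels holds the mouse, but the strain and the gene identifiers are of the rat, and the samples were read as rat.

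In the liver, the clock proteins BMAL1 and CLOCK switch on genes through E-box elements, among them Dbp, the Per genes and the Rev-erb genes. DBP, TEF and HLF then bind D-box elements and switch on a further set of genes, many of them for the handling of drugs, heme and fatty acids, while NFIL3 binds the same elements and represses. The RNA of such genes can change severalfold between day and night, so a level depends on the hour at which the liver was taken. The rats lived under a 12-h light-dark cycle. The hour at which each rat was killed, and the order of the groups, are not given in the sources used here.

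Total counts per library lay between 14345819 and 26837227. Levels are given as CPM, the counts divided by library size and put on a common scale after TMM normalization. CPM are not divided by gene length, so they compare rats within a gene and not one gene with another. The summed level of 5 hepatocyte markers was 129671 to 167977 CPM in the control rats, 168175 to 215655 CPM in the model rats and 163780 to 206396 CPM in the DSS rats, so the model rats lay just above the control rats. The summed markers of bile duct, stellate and endothelial cells, of red blood cells, and of leukocytes with Kupffer cells overlapped between all 3 groups. The 2 markers of proliferating cells stood at 4.02 to 9.26 CPM in the model rats and 0.544 to 2.94 CPM in the DSS rats, which did not overlap. The part of these markers in the results was not tested. On the first main axis of variation the groups did not overlap. Control rats lay at -30.3 to -23.2, model rats at -1.92 to 6.12 and DSS rats at 19.7 to 31.9. On the second axis model replicate 1 stood apart from the other 8 rats, at -51.8. In bulk tissue, fewer cells of a type and less RNA per cell cannot be told apart. With 3 samples in each group, exact permutation could not reach a p under 0.1, and p-values are therefore taken from edgeR's fit over all genes tested.

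Noct and Usp2 were low in every rat that drank fructose, with or without the extract. Hlf was lower in the same 6 rats by a smaller amount. Tef was low in the model group and close to control in the DSS group. Dbp varied widely within the model group, and Bhlhe40 was lowest in the DSS group. Ciart and Bhlhe41 were near the limit of detection in all rats. To be called, a gene had to differ by 0.5 or more on the log2 scale in either direction with an FDR (Benjamini-Hochberg) no higher than 0.01. In the model group against control, 2 of the 7 members that passed the filter on low counts were called, Noct and Usp2, where 0.0801% of all 12486 genes were called in either direction. In the DSS group against control Noct was called, where 1.48% of 12633 genes were. In the DSS group against the model group 0 of 7 were called by edgeR, and 0 by DESeq2, where edgeR called 0.136% of 12502 genes. In that last comparison 2 members had an unadjusted p under 0.05 by edgeR, Tef and Bhlhe40, where 8.02% of all genes did, and without model replicate 1 the count was 0 of 7. DESeq2 called more genes than edgeR did. It called 256 of 12486 in the model group against control and 147 of 12502 in the DSS group against the model group. In the DSS group against control it called 768 of 12633. The comparisons share libraries, so they are not independent of each other.

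**Figure D1:**
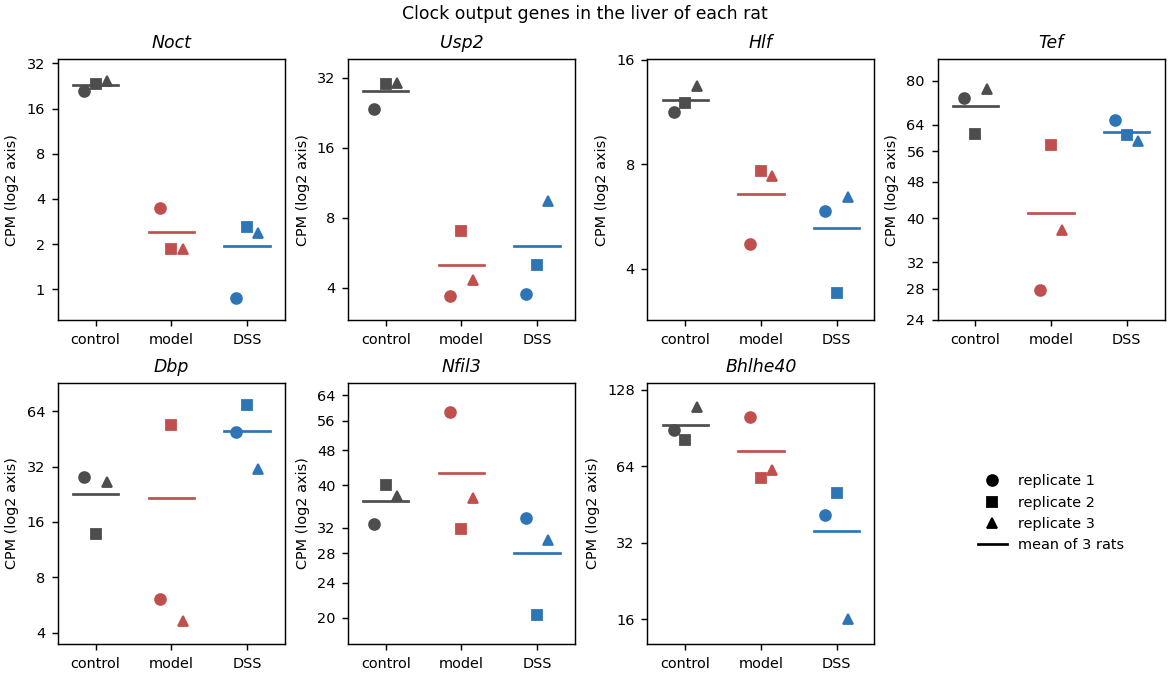
CPM of the 7 clock output genes above the filter on low counts (y axis, log2 scale) in each rat, by group (x axis), with the replicate as symbol and the group mean as a line. For Noct and Usp2 all 6 fructose-fed rats lie below all 3 control rats, while for Dbp model replicate 2 stands at 53.8 CPM and the other model rats at 6.12 and 4.63 CPM.

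Noct (ENSRNOG00000010799) encodes nocturnin, a member of the CCR4 family of deadenylases that acts on NADP(H). In the control rats it stood at 21.1, 23.3 and 24.4 CPM, a mean of 22.9 ± 1.71 CPM (SD, n = 3). In the model rats it stood at 3.51, 1.86 and 1.85 CPM, a mean of 2.41 ± 0.954 CPM. In the DSS rats it stood at 0.870, 2.59 and 2.38 CPM, a mean of 1.95 ± 0.938 CPM. The highest fructose-fed rat was thus far below the lowest control rat, and the model and DSS rats overlapped. The counts behind these values were 367 to 526 in the control libraries, 29 to 82 in the model libraries and 16 to 48 in the DSS libraries. The fitted level in the model group was 9.30-fold lower than in control, or -3.22 on the log2 scale (standard error, SE, 0.274, FDR 0.00417 from edgeR). This was the fall of rank 14 among the 12486 genes tested. Against control the DSS group was 11.7-fold lower, or -3.55 on the log2 scale (SE 0.314, FDR 0.00106 from edgeR), which ranked 12th among falls. Between the DSS and model groups the log2 fold change was -0.31 (SE 0.462, FDR 0.914 from edgeR), and its sign turned to 0.077 without model replicate 1 and to 0.032 without DSS replicate 1. The call of the model group was lost at the threshold of 0.01 when control replicate 1, 2 or 3 or model replicate 3 was left out (FDR 0.0268, 0.0273, 0.0175 and 0.022 from edgeR), with log2 fold changes between -3.28 and -3.06. The same held with the replicate number as a block in the fit (log2 fold change -3.28, FDR 0.0573 from edgeR). The call of the DSS group against control was kept with each rat left out in turn, at an FDR of at most 0.00636.

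Usp2 (ENSRNOG00000006663) encodes a deubiquitinating enzyme whose RNA is rhythmic in many tissues and which acts on clock proteins. Its levels were 23.5, 30.1 and 30.3 CPM in the control rats, a mean of 28.0 ± 3.87 CPM (SD, n = 3). In the model rats they were 3.68, 7.01 and 4.32 CPM, a mean of 5.003 ± 1.77 CPM. In the DSS rats they were 3.75, 5.02 and 9.40 CPM, a mean of 6.06 ± 2.96 CPM. All fructose-fed rats lay below every control rat, and the model and DSS rats overlapped. The model group was 5.64-fold lower than control, or -2.50 on the log2 scale (SE 0.253, FDR 0.0085 from edgeR), the fall of rank 31. For the DSS group against control the log2 fold change was -2.20 (SE 0.325, FDR 0.012 from edgeR), which did not pass the threshold of 0.01. Without DSS replicate 3, the rat with the highest Usp2 of the 6, it was -2.66 (FDR 0.00177) and passed. Compared with the model rats it was 0.29 (SE 0.386, FDR 0.896), and -0.17 without DSS replicate 3. The call of the model group was lost without each control rat (FDR 0.0273, 0.0526 and 0.0325 without replicate 1, 2 and 3) and without model replicate 1 or 3 (FDR 0.0165 and 0.0405), all by edgeR. The log2 fold changes in these fits lay between -2.60 and -2.32. It was also lost with library size alone as the normalization (FDR 0.0267) and with all 9 libraries in one fit (FDR 0.0103). The same held with the replicate number as a block in the fit (log2 fold change -2.53, FDR 0.0573 from edgeR).

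**Figure D2:**
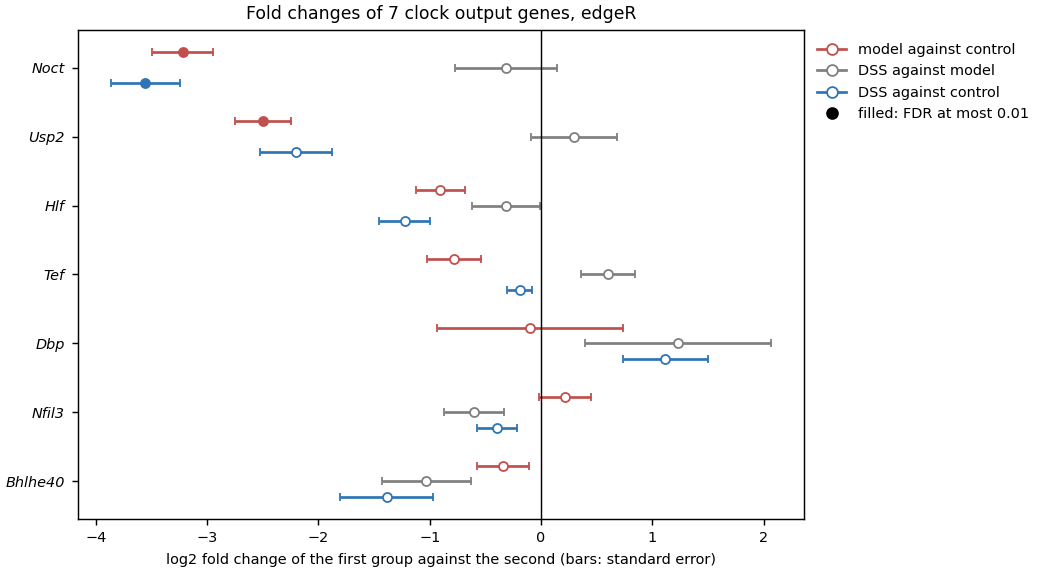
Log2 fold changes from edgeR (x axis, with the standard error as bars) of the 7 clock output genes (y axis) in the 3 comparisons. Filled points passed both thresholds, which are Noct in the model and DSS groups against control and Usp2 in the model group against control.

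Hlf (ENSRNOG00000002456), the hepatic leukemia factor gene, was the PAR activator that differed most evenly between the fructose-fed rats and the control rats. It stood at 11.3, 11.997 and 13.4 CPM in the control rats. The model rats were at 4.71, 7.65 and 7.40 CPM and the DSS rats at 5.87, 3.40 and 6.46 CPM, so that no fructose-fed rat reached the lowest control rat. The group means were 12.3 ± 1.08, 6.59 ± 1.63 and 5.24 ± 1.62 CPM (SD, n = 3 rats each). The log2 difference from control was -0.90 in the model rats (SE 0.218, FDR 0.122 from edgeR) and -1.22 in the DSS group against control (SE 0.229, FDR 0.0169 from edgeR). Neither passed the threshold of 0.01. At an FDR of 0.05, Hlf and Usp2 joined Noct in the DSS group, where 6.36% of all genes were called. No further member was called at 0.05 in the model group against control (0.601% of all genes) or in the DSS group against the model group (0.456%). By DESeq2 Hlf was called in the DSS group against control (FDR 0.000106). The DSS and model groups overlapped, with a log2 fold change of -0.32 (SE 0.303).

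Tef (ENSRNOG00000019383) encodes the thyrotroph embryonic factor, a further PAR activator. The control rats stood at 73.3, 61.1 and 76.7 CPM. The model rats were at 27.8, 57.9 and 37.7 CPM, all below the control rats, and model replicate 2 was nearest to them. The DSS rats stood at 65.6, 60.9 and 58.9 CPM, which was higher than in each model rat and overlapped the control rats. The log2 difference of the model group from control was -0.78 (SE 0.245, FDR 0.225 from edgeR). Against the model group it was 0.60 in the DSS group (SE 0.242, FDR 0.58), and against control -0.19 (SE 0.113, FDR 0.332). None of these values passed the threshold. Without model replicate 2 the log2 fold change of the model group was -1.11 (FDR 0.0624), and that of the DSS group against the model group was 0.92 (FDR 0.114). Without model replicate 1 the same values were -0.58 and 0.38.

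Dbp (ENSRNOG00000021027), which encodes the D-box binding protein and is the classical direct target of BMAL1 and CLOCK, differed widely within the model group. The control rats stood at 28.2, 13.7 and 26.2 CPM, the model rats at 6.12, 53.8 and 4.63 CPM and the DSS rats at 49.3, 68.7 and 30.9 CPM. Model replicate 2 was above every control rat and within the range of the DSS rats, while the other 2 model rats were below every control rat. The highest model rat was 11.6 times the lowest. The SD of log2 levels in the model group was 1.87, larger than that of 99.9% of the 12897 genes kept over the 9 libraries, for which the median was 0.266. In the control and DSS groups it was 0.557 and 0.573, both at percentile 94.9. The log2 difference of the model group from control was -0.10 (SE 0.836, FDR 0.971 from edgeR), and it changed with single rats. DESeq2 gave no FDR for it. Without model replicate 2 it was -2.07 (FDR 0.0584), and without model replicate 1 or 3 it was 0.34 or 0.37. All 3 DSS rats were above all 3 control rats, with a difference of 1.12 on the log2 scale (SE 0.381, FDR 0.146 from edgeR), which passed by DESeq2 (FDR 0.00415). Against the model group it was 1.23 (SE 0.838, FDR 0.809), and 3.20 without model replicate 2 (FDR 0.0257).

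The rat that stood apart in Dbp also differed from the other model rats in some genes of the core loop and not in others. The genes given here were picked after their values were seen. Nr1d1, which encodes the repressor REV-ERB alpha, was at 81.7 CPM in model replicate 2 and at 13.2 and 27.3 CPM in model replicates 1 and 3, with 2.03 to 8.53 CPM in the control rats and 83.8 to 105 CPM in the DSS rats. Per3 was at 10.996 CPM in model replicate 2 and at 1.84 and 3.64 CPM in the other model rats. Per1 stood at 2.05, 3.54 and 8.76 CPM and Per2 at 14.4, 17.0 and 12.6 CPM in model replicates 1, 2 and 3, so that replicate 2 did not stand apart in either. Cry1 stood at 19.1, 10.2 and 9.93 CPM in the same rats, of which replicate 1 was the highest. In contrast Npas2, which encodes a partner of BMAL1 and is repressed by REV-ERB proteins, was lowest of the model rats in replicate 2, at 15.05 CPM against 26.8 and 33.6 CPM. Between the model and DSS groups the 2 genes ran opposite to each other without overlap. Nr1d1 was higher and Npas2 lower in the DSS rats. Against the control group they did not run opposite. The control rats, lowest in Nr1d1, were also lowest in Npas2, at 1.20 to 2.63 CPM, and the DSS rats stood at 8.47 to 12.8 CPM. A link between the 2 genes was not tested. In Noct, which varied less than 2-fold within the model group (ratio of highest to lowest 1.9), model replicate 2 did not stand apart.

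**Figure D3:**
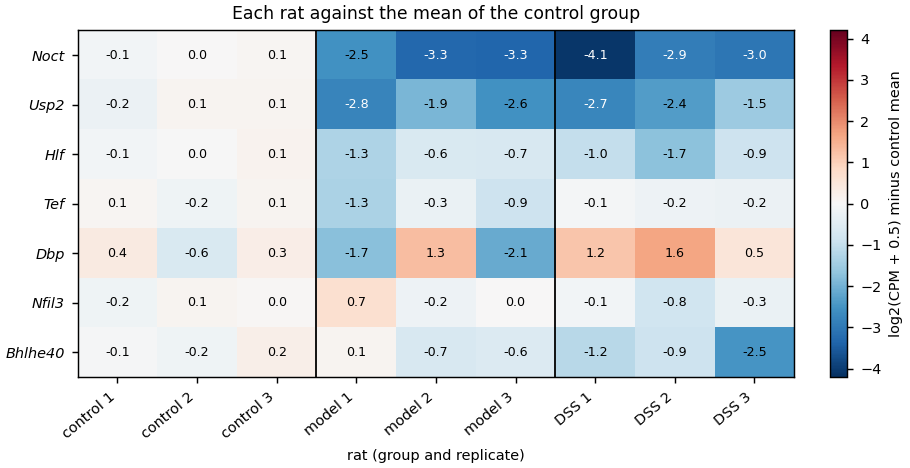
Level of each of the 7 clock output genes (rows) in each rat (columns), as log2(CPM + 0.5) minus the mean of the control rats, in colour and in figures. The rows of Noct, Usp2, Hlf and Tef are below 0 in all 6 fructose-fed rats, with Tef only at -0.09 in DSS replicate 1. Dbp is at -1.74, 1.29 and -2.11 in the model rats and above 0 in all 3 DSS rats.

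Nfil3 (ENSRNOG00000011668), also known as E4BP4, encodes the repressor of D-box elements and is itself under REV-ERB control. The control rats stood at 32.6, 40.1 and 37.7 CPM, the model rats at 58.6, 31.8 and 37.4 CPM and the DSS rats at 33.8, 20.3 and 30.1 CPM. Model replicate 1 was the highest of the 9 rats, the other model rats lay near the control rats, and DSS replicate 2 was the lowest. The log2 difference of the model group from control was 0.22 (SE 0.232, FDR 0.732 from edgeR), and -0.11 without model replicate 1. For the DSS rats it was -0.60 against the model group (SE 0.27, FDR 0.646), or -0.30 without model replicate 1, and -0.40 against control (SE 0.183, FDR 0.225). No comparison passed, and the groups overlapped in all 3.

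The 3 activators and Nfil3 compete for the same DNA element, so their log2 ratio within a rat was described as well. It hardly depends on the scaling of the library and is given relative to the mean of the control rats, on the scale of log2(CPM + 0.5). As a score over chosen members it was not tested. The ratio of the mean of Dbp, Tef and Hlf to Nfil3 was 0.28, -0.41 and 0.14 in the control rats, -2.12, 0.33 and -1.26 in the model rats and 0.14, 0.75 and 0.08 in the DSS rats. Model replicates 1 and 3 were lower than the other 7 rats, and model replicate 2 was within the range of the DSS rats. The activators differed among themselves. Dbp over Nfil3 was between 0.78 and 2.48 in the DSS rats, above the control rats, whereas Hlf over Nfil3 was between -0.88 and -0.59 there, below the control rats. Tef over Nfil3 was between 0.02 and 0.64 in the DSS rats, with overlap.

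**Figure D4:**
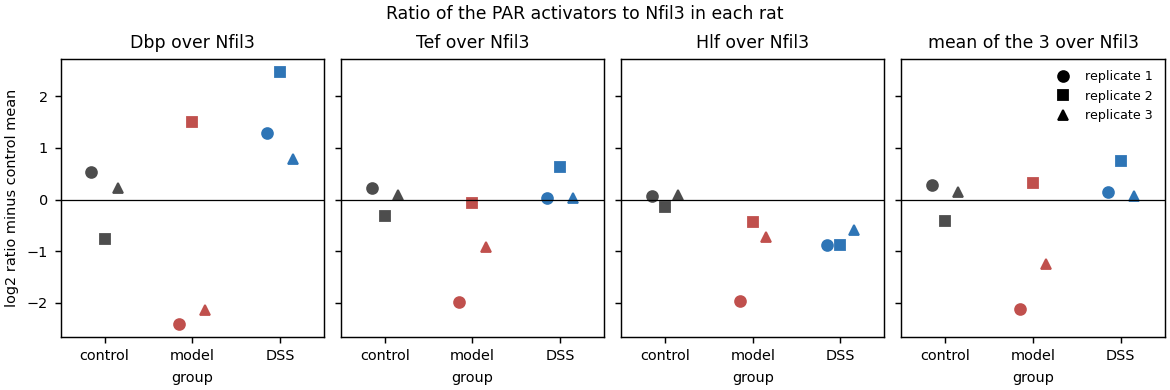
Log2 ratio of Dbp, Tef, Hlf and their mean to Nfil3 in each rat (y axis, minus the mean of the control rats) by group (x axis), with the replicate as symbol. In the DSS rats the ratio is above 0 for Dbp and below 0 for Hlf, and in the model group replicates 1 and 3 are lower than replicate 2 in each panel.

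Bhlhe40 (ENSRNOG00000007152) encodes DEC1, a repressor that binds E-boxes in competition with BMAL1 and CLOCK and that also responds to feeding, hypoxia and cytokines. It stood at 88.8, 81.4 and 109 CPM in the control rats. The model rats were at 100.2, 57.3 and 62.0 CPM, with replicate 1 inside the control range and the other 2 below it. The DSS rats were at 41.1, 50.2 and 16.0 CPM, all below every model and control rat, and replicate 3 was far below the other 2. The log2 fold change in the DSS group was -1.39 against control (SE 0.42, FDR 0.119 from edgeR) and -1.03 against the model group (SE 0.401, FDR 0.574). Without DSS replicate 3 these were -1.02 (FDR 0.016) and -0.68 (FDR 0.673). Without model replicate 1 the difference from the model group was -0.73. DESeq2 called the difference from control (FDR 0.000404) and not that from the model group (FDR 0.214). In the model group against control the log2 fold change was -0.34 (SE 0.234, FDR 0.575 from edgeR), and -0.66 without model replicate 1 (FDR 0.0974).

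Ciart (ENSRNOG00000042717), which encodes the BMAL1 repressor CHRONO, and Bhlhe41 (ENSRNOG00000048961), which encodes DEC2, did not pass the filter on low counts in any comparison. Ciart had 7, 2 and 3 counts in the control libraries, 4, 3 and 3 in the model libraries and 7, 15 and 3 in the DSS libraries. DSS replicate 2, the rat with the highest Dbp, had the most. Bhlhe41 had 4, 1 and 3 counts in the control libraries, 0, 0 and 1 in the model libraries and 3, 1 and 2 in the DSS libraries. A count of 0 allows up to 3 counts, or 0.128 and 0.193 CPM in model replicates 1 and 2, and this limit covers counting error only. Neither gene was tested, and no fold change is given at this depth.

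Counted over the 7 tested members, the model and control rats did not overlap in 4 (Noct, Usp2, Hlf and Tef, all lower), where the same held for 21.1% of all genes in either direction. The DSS and model rats did not overlap in 2 (Tef higher, Bhlhe40 lower), where it held for 14% of all genes. The DSS and control rats did not overlap in 5 (Dbp higher and Noct, Usp2, Hlf and Bhlhe40 lower), where it held for 30.1%. The median log2 fold changes of the 7 members were -0.78, -0.31 and -1.22 in the same order, beside medians of -0.00107, 0.000778 and -0.00803 over all genes tested. Within groups most members varied about as much as other genes in the control rats, and more in the model and DSS rats. In the model group the SD of log2 levels of the 7 members lay between percentile 67.5 (Hlf) and 99.9 (Dbp) of all genes. The SD of log2 levels in the DSS group was at or above the 84.6th percentile of all genes in 6 of the 7 members, from Nfil3 to Bhlhe40 at percentile 98.6, and at percentile 14.6 in Tef.

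The genes with the most similar pattern to Noct and Usp2 were sought among the 12897 genes kept over the 9 libraries, by the root-mean-square difference of centred log2 levels. For Usp2 these were Per2 (0.377), Erich5 (0.469) and Por (0.476). For Noct they were Per2 (0.563), Nat8f3 (0.578) and Wee1 (0.578). Per2, a repressor of the core loop, stood at 75.0 to 89.3 CPM in the control rats, 12.6 to 17.0 CPM in the model rats and 14.3 to 15.3 CPM in the DSS rats.

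In the core loop, the negative feedback that drives these outputs, 12 of 12 listed genes were tested. In the model group against control Per2 alone was called lower and 0 were called higher, where 0.0801% of all genes were called. The median log2 fold change was -0.65, with 5 genes higher and 7 lower. The largest changes were rises, of Npas2 (3.92, FDR 0.0111 from edgeR) and Nr1d1 (2.88, FDR 0.137). Per2 stood at -2.48 (FDR 0.00176). Npas2 passed only at an FDR of 0.05. In the DSS group against control 3 of 12 were called lower, among them Per2 and Cry1, and 1 was called higher, Npas2. There 1.48% of all genes were called, and the median of the list was -0.58. The largest change there was the rise of Nr1d1 (4.12, FDR 0.0111 from edgeR), which passed only at an FDR of 0.05. Against the model group 0 of 12 were called by edgeR (median 0.02), with 4 at an unadjusted p under 0.05 (8.02% of all genes). DESeq2 called Cry1 and Npas2 among others in that comparison, where it called 147 of 12502 genes. By DESeq2 Cry1 and Npas2 were called in the model group against control as well, beside Per2. There it called 256 of 12486 genes. Cry1, a partner of the PER proteins, stood at 28.3 CPM on average in control, 13.1 in the model group and 4.60 in the DSS group, a log2 fold change of -2.63 in the DSS group against control (FDR 0.000289 from edgeR). Npas2 stood at 1.68, 25.1 and 10.02 CPM in the control, model and DSS groups, with a log2 fold change of 2.59 in the DSS group against control (FDR 0.00373 from edgeR). Between the DSS and model groups the log2 fold changes of Cry1 and Npas2 were -1.51 and -1.32 (FDR 0.141 and 0.202 from edgeR), and the rats of the 2 groups did not overlap.

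Of 9 genes known as targets of the PAR factors in liver, 8 were tested. Por, which encodes the reductase that passes electrons to cytochromes P450, was called lower in the model group (log2 fold change -1.71, FDR 0.00282 from edgeR) and in the DSS group against control (-1.36, FDR 0.000384). Its levels were 247 to 260 CPM in the control rats, 71.5 to 85.9 CPM in the model rats and 94.3 to 108 CPM in the DSS rats. Alas1, which encodes the rate-limiting enzyme of heme synthesis, was called lower in the DSS group against control (-1.90, FDR 0.00783) and stood at -1.35 on the log2 scale in the model rats against control (FDR 0.0644). The other members of the list were not called by edgeR in any comparison. In the DSS group against the model group 0 were called by edgeR, and 5 of 8 had an unadjusted p under 0.05 (8.02% of all genes did). DESeq2 called 1 there, Acot4, beside 147 of 12502 genes. For the model group against control DESeq2 called 2, Alas1 and Por, beside 256 of 12486 genes. The medians of the list by edgeR were 0.25 in the model group and -0.49 in the DSS group against the model group. In the DSS group against control the median was -0.56. The thioesterase genes Acot2, Acot3 and Acot4, taken up together after their values were seen, stood in all DSS rats below every model rat, with log2 fold changes of -0.94, -1.03 and -1.24 (lowest FDR 0.217 from edgeR). Por went the other way, with all DSS rats above every model rat (0.36, FDR 0.523 from edgeR). Of the 8 tested, 4 were lower and 1 higher without overlap, where 14% of all genes did not overlap in either direction.

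Among 9 tested genes of a list of other rhythmic liver genes, 0 were called in the model group by edgeR. An unadjusted p under 0.05 was found for 3 (13.2% of all genes). DESeq2 called 2, Nampt and Wee1, beside 256 of 12486 genes. Of the 9, 3 did not overlap the control rats, beside 21.1% of all genes. The list had a median log2 fold change of 0.47 for the model rats against control, -0.12 in the DSS group against the model group and -0.53 in the DSS group against control. Wee1, which encodes a cell cycle kinase under E-box control, was called in the DSS group against control (-2.36, FDR 0.000969 from edgeR). It stood at 8.89 to 13.2 CPM in the control rats, 0.864 to 2.95 CPM in the model rats and 1.74 to 2.54 CPM in the DSS rats. In the model rats it differed from control by -2.64 on the log2 scale (FDR 0.033). Nampt, which encodes the rate-limiting enzyme of NAD salvage and was also chosen after its values were seen, stood at 121, 55.8 and 64.5 CPM on average in the control, model and DSS groups, with log2 fold changes against control of -1.12 (FDR 0.0788) and -0.92 (FDR 0.0268).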

How the data were processed

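Liver RNA of 9 rats was sequenced, and per the submitters' processing notes and the study's methods the authors aligned reads with HISAT2 to Rnor_6.0 and counted them per gene with HTSeq 0.6.1, without regard to strand. Overlapping and antisense genes therefore cannot be told apart. The deposited values used here are these raw read counts; a table of predicted transcripts, whose unit is not given in the sources used here, was not used. Samples were grouped by their labels. Nothing in the labels beyond the numbered titles describes the replicates as separate animals, and each library was read as a separate rat. The p-values rest on the spread between these samples, together with information that edgeR's fit shares over genes. For each comparison, edgeR 4.0.16 (R 4.3.3) was run on its 6 libraries: filterByExpr, TMM factors, a robust quasi-likelihood fit, a two-sided test and Benjamini-Hochberg adjustment over all genes tested. Calls required a log2 difference of 0.5 or more in either direction and an FDR no higher than 0.01. The standard error is the absolute log2 fold change divided by the square root of F. CPM used total counts times TMM factors, and log2 levels added 0.5 CPM. The fit was tested on simulated data. Library size alone, no filter, DESeq2 1.42.0 and its size factors, all 9 libraries in one fit, a replicate block, an FDR of 0.05 and leaving out each rat were tried. Members and gene lists were chosen with earlier results of these data known. All 9 members are named. Of the lists, called genes and examples are named, and for each called member the 3 genes of most similar pattern. Genes named outside this rule are marked as chosen after their values were seen. Some results of the gene lists are not reported here. Depth was 14345819 to 26837227 counts per library.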

Additional observations from a re-analysis of the deposited data

How the results depend on the processing

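Of 294 member values under the alternatives, 261 kept direction and side of the threshold, 12 passed newly, 13 no longer passed and 8 changed sign. In the model group against control, 10 genes and 2 members were called. Genes called were 71 with no filter, 256 by DESeq2, 25 with all 9 libraries in one fit and 75 at an FDR of 0.05, and members called were 1 with library size alone and 1 with all 9 libraries. With each rat left out in turn, 0 to 10 genes and 0 to 2 members were called. Without control replicate 1, 2 or 3, 0 genes were called. In the DSS group against the model group, 17 genes were called, against 11 with library size alone, 38 with no filter, 147 by DESeq2, 57 at an FDR of 0.05 and 2 to 12 with a rat left out. In the DSS group against control, 187 genes and 1 member were called. Genes called were 489 with no filter, 768 by DESeq2, 113 with all 9 libraries, 804 at an FDR of 0.05 and 86 to 132 with a rat left out. Members called were 3 with library size alone, 2 with no filter, 5 by DESeq2, 2 with all 9 libraries, 3 at an FDR of 0.05 and 1 to 2 with a rat left out. With the replicate block, 0 genes and 0 members were called in the model group against control by edgeR (1166 genes at an unadjusted p under 0.05), 7 genes in the DSS group against the model group, and 104 genes and 2 members in the DSS group against control. The labels do not say that the replicate numbers pair the rats. Over all genes kept, same-numbered deviations correlated at -0.25 to -0.01. A pairing that acts on only a few genes could not be seen in this way. With a rat left out, log2 fold changes that changed sign ranged from -2.07 to 0.37 for Dbp and -0.11 to 0.39 for Nfil3 in the model group against control, and from -0.57 to 0.077 for Noct and -0.17 to 0.60 for Usp2 in the DSS group against the model group. Library size alone moved the median of all genes by -0.144 in the model group and -0.136 in the DSS group against control, and split the latter's calls into 57 higher and 181 lower, against 83 and 104. The cause of these changes was not tested. Counts under 20 per library limit Ciart and Bhlhe41.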

Other observations

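Relatives of the clock output genes were measured beside them, and 0 of those tested were called by edgeR in any of the 3 comparisons. By DESeq2, Angel2 and Cnot6l were called in the DSS group against control, where 768 of 12633 genes were. In the other comparisons DESeq2 called 0 of the relatives. Of 5 deadenylase relatives of Noct, the median log2 fold changes were -0.19 in the model group against control, 0.33 in the DSS group against the model group and 0.29 in the DSS group against control. At an FDR of 0.05 and the same fold threshold, Angel2 (-0.51, FDR 0.0278) and Cnot6l (0.54, FDR 0.028) passed in the last of these. At an unadjusted p under 0.05 by edgeR there were 2, 3 and 4 deadenylase relatives in the 3 comparisons, beside 13.2%, 8.02% and 24.3% of all genes. The medians of 5 ubiquitin protease relatives of Usp2 were -0.00494, 0.19 and 0.18 in the same order, with 0, 0 and 1 at such a p. Of the 5 hairy-related relatives of Bhlhe40, 3 were tested, with medians of -0.06, -0.03 and 0.000393, and 0, 0 and 2 at such a p. The 4 C/EBP relatives of the PAR factors had medians of 0.34, -0.21 and -0.14, and 2, 1 and 0 at such a p.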
